A study of Mus musculus with 6 samples.

Results

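The 9 genes described here encode enzymes that make or break down heme in mouse liver: Alas1, Alad, Uros, Urod, Cpox, Ppox and Fech of the synthesis route, and Hmox1 and Blvrb of the breakdown route. They were chosen by name, without using measured values, and each of the 9 names matched 1 row of the 56674 rows of the read count table. Messenger RNA was sequenced from the livers of C57BL/6 male mice followed for 71 weeks. The control group ate normal chow (3 libraries), and the other group ate chow containing PB-MP, a black polypropylene microplastic (3 libraries). No genetic change is given for either group, and the labels used here give no dose, particle size, start age or time of day. The labels number the libraries within a group but do not say that each came from a separate animal, so the p-values measure only the spread between these libraries, which may be technical.

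Heme is an iron-bearing porphyrin, and hepatocytes use much of it for cytochrome P450 enzymes. Synthesis starts in mitochondria, where ALAS joins glycine to succinyl-CoA to give 5-aminolevulinic acid (ALA). It passes through porphyrin intermediates in the cytosol, and ends in mitochondria, where FECH inserts iron. Alas1 encodes the housekeeping form of the first enzyme, the rate-limiting step in liver, and is known to be repressed by heme and induced by drugs that raise P450 demand. Breakdown starts with heme oxygenase, which opens the ring to biliverdin, iron and carbon monoxide. Biliverdin reductases then make bilirubin.

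Start-site sequences are shown for 5 of the genes, to show how short factor-binding letters are spread over genes that lay on both sides of the control level. They come from RefSeq (build GRCm38.p6), were matched by gene symbol, and run 5′ to 3′ on the minus strand of the genome from 250 bases before to 50 bases after an annotated start. The submitters' processing notes name GRCm39, so these coordinates are not those of the counted alignment. Capitals mark CACGTG (the E-box, bound by clock and other basic helix-loop-helix factors) or GCATGCGC (the core of the site bound by nuclear respiratory factor NRF1), found on either strand.
Alas1, chr9:106247681-106247980: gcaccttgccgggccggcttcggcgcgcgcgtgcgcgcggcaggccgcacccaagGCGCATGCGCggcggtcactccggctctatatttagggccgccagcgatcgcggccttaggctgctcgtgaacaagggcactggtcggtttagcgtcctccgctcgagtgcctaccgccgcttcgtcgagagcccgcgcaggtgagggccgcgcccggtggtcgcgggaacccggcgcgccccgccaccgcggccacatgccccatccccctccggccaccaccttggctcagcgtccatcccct
Alad, chr4:62519860-62520159: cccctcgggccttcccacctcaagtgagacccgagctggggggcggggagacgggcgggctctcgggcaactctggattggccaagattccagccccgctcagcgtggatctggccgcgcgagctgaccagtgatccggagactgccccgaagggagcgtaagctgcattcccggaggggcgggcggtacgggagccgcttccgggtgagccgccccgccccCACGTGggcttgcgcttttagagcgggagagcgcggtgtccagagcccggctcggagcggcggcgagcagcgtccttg
Urod, chr4:116994364-116994663: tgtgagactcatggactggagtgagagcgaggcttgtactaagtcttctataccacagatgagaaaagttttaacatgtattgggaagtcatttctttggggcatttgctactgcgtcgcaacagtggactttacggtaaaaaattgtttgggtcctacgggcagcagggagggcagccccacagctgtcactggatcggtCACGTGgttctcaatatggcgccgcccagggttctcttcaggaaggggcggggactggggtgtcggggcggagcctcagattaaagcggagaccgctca
Uros, chr7:133709246-133709545: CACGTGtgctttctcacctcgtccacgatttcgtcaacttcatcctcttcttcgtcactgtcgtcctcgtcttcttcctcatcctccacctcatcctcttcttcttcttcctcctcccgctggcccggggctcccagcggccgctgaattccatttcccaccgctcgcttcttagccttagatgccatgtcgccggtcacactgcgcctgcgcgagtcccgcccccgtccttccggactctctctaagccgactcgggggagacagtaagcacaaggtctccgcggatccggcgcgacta
Ppox, chr1:171281137-171281436: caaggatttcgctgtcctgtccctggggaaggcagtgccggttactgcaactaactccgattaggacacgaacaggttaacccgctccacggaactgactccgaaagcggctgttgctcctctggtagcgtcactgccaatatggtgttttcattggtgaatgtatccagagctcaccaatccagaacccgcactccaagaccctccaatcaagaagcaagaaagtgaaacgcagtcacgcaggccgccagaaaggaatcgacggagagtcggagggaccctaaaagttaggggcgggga
The Alas1 window held the NRF1 core on both strands, as overlapping matches of 1 palindrome. The shown windows of Alad, Urod and Uros each held 1 E-box, in Uros at the far end, 250 bases before the start. The other Uros window, not shown, held no E-box. The other Alad window, also not shown, held 1 E-box. The Ppox window held neither of the marked motifs, nor did the windows of Cpox and Blvrb, which are not shown. Among all 32851 promoter windows of this length, 2.71% held the NRF1 core and 7.15% the E-box. In all, 11 windows of 7 of the 9 genes were searched, with none for Hmox1 or Fech. Any windows of the 9 genes on 1 chromosome were left out of the search. TGACGTCA, the cAMP response element held by 1.79% of all windows, was in none of the 11. TGANNNNGC, the core of the antioxidant response element read by NRF2, was searched on both strands and was present in 41.3% of all windows, so its presence separates little. It lay in the windows of Cpox and Blvrb and in both windows of Uros. A match gives letters only, and binding was not measured.

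Library totals ran from 68357478 to 112566641 reads, of which the 9 genes held 52717 to 142834 per library (0.0737% to 0.127%). The lowest member count was 257 reads (Uros, control replicate 2) and the highest 50962 (Alas1, control replicate 3). Counting error was not always small beside the spread between libraries. For Urod with PB-MP (4562, 4872 and 5594 reads) it exceeded that spread. All libraries were rich in hepatocyte RNA: 6 hepatocyte genes (Alb, Ttr, Apoa1, Cps1, Serpina1a, Fgb) summed to between 60230 and 74742 CPM, read counts scaled to a common library size. Some libraries stood apart. The 18S ribosomal RNA row took 11.2% of reads in control replicate 2 and 9.42% in PB-MP replicate 2, against 0.707% to 3.61% in the others. PB-MP replicate 3 held the most macrophage marker RNA. Mitochondrial mRNA took 14.2% to 15.1% of reads in control libraries and 8.73% to 10.1% in PB-MP libraries, and CPM values below are scaled by TMM, edgeR's trimmed-mean factor for such shifts in composition.

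None of the 9 genes passed an adjusted p below 0.05 in edgeR's quasi-likelihood test, in which 0% of the 17871 genes tested did, the smallest adjusted p being 0.124. Before adjustment, 3 of the 9 had p below 0.05 and were higher with PB-MP (Uros, Ppox and Hmox1), against 7.35% of all genes, and 1 was lower (Urod), against 4.74%. The 3 PB-MP libraries lay above all 3 control libraries for Uros, Ppox and Hmox1, which was so for 11.4% of all genes. They lay below for Urod and Fech, which was so for 8.49% of all genes. With library totals as the only scaling, the 3 genes above stayed and neither Urod nor Fech was apart, while 23.9% of all genes were apart in either direction. DESeq2 called none of the 9, against 2.44% of the 21004 genes it gave an adjusted p. The count of 4 genes at an unadjusted p below 0.05 changed, as did its genes, when 1 library was left out. It became 2 without the first control library (Ppox and Cpox) or without the second (Urod and Alad). It became 1 without the third control (Uros), the first PB-MP library (Hmox1) or the third PB-MP library (Blvrb, which was not among the 4).

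**Figure D1:**
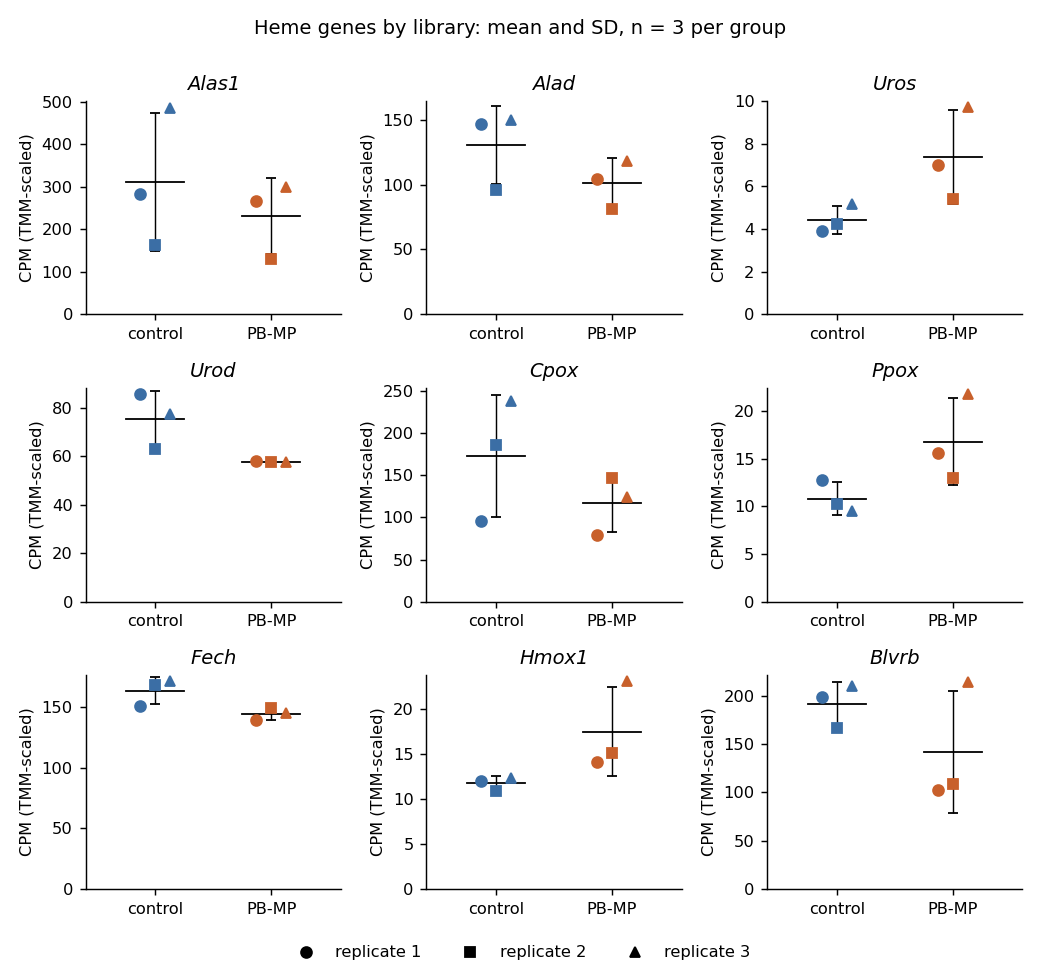
Each panel plots 1 of the 9 genes as TMM-scaled CPM from a 0 baseline, with 1 point per library, control and PB-MP side by side, and a line at each group's mean with bars of 1 SD. Uros, Ppox and Hmox1 have every PB-MP point above the control points, Urod and Fech have every PB-MP point below, and the other panels overlap.

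The first step was the most variable. Alas1 gave 284, 164 and 485 CPM in the controls against 266, 130 and 299 CPM in the PB-MP libraries, with replicates 1, 2 and 3 in that order here and below. The highest library was a control and the lowest a PB-MP library, but the groups overlapped widely, and within each group replicate 2 was lowest and replicate 3 highest. The group means were 311 ± 162 and 231 ± 89.3 CPM (SD, n = 3), a log2 fold change of -0.43 ± 0.45 (SE) with an edgeR adjusted p of 0.743. The 95% interval of the fold, 0.358 to 1.55, reaches both sides of 1. Without control replicate 3 the log2 estimate turned to 0.037. The ratio of highest to lowest library was 3.73, larger than in 94.9% of the 608 genes whose mean level was within a factor of 2. Alas2, the erythroid form of the same enzyme, was steadier, at 72.6, 66.8 and 75.1 CPM in controls and 61.4, 69.2 and 66.9 CPM with PB-MP. Its log2 fold change was -0.12 ± 0.13, and its groups overlapped.

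Of the cytosolic enzymes, Alad, whose product joins a pair of ALA molecules to porphobilinogen, followed Alas1 from library to library. It measured 146, 95.4 and 149 CPM in controls and 105, 81.0 and 118 CPM with PB-MP. Replicate 2 was again the lowest of each group, and control replicate 2 lay below both PB-MP replicate 1 and PB-MP replicate 3. The log2 fold change was -0.36 ± 0.23 (edgeR adjusted p 0.566). Across the 6 libraries the Pearson correlation of Alas1 and Alad on the log2 scale was 0.90, a description of points that share their library and its depth. Both replicate 2 libraries also held the high 18S share. With that share (above 5%) as a term in the edgeR fit, the estimates were -0.41 for Alas1 (adjusted p 0.515) and -0.35 for Alad (adjusted p 0.421). The part of ribosomal RNA content in the low replicate 2 values was not tested.

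Uros and Urod act in sequence and lay on opposite sides of the control level. Uros, which closes the ring to uroporphyrinogen III, had 3.90, 4.24 and 5.18 CPM in controls and 7.02, 5.40 and 9.73 CPM with PB-MP. Every PB-MP library was above every control, though PB-MP replicate 2 exceeded control replicate 3 only slightly. The means were 4.44 ± 0.666 and 7.39 ± 2.19 CPM (SD, n = 3), a fold of 1.66 with a 95% interval of 1.07 to 2.59. The log2 fold change was 0.73 ± 0.27, with an edgeR unadjusted p of 0.0296 and an adjusted p of 0.362.

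Urod removes carboxyl groups from uroporphyrinogen to give coproporphyrinogen. It measured 85.5, 62.9 and 77.2 CPM in controls and 57.8, 57.6 and 57.4 CPM with PB-MP. The PB-MP libraries were nearly equal, closer than counting error on their reads would usually give, and lay below the lowest control. The means were 75.2 ± 11.5 and 57.6 ± 0.229 CPM (SD, n = 3), a fold of 0.766 with an interval of 0.592 to 0.991, an edgeR unadjusted p of 0.0442 and an adjusted p of 0.404. With library totals as the only scaling its log2 fold change moved from -0.38 to -0.17, while the median of all genes moved from 0.01 to 0.23.

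**Figure D2:**
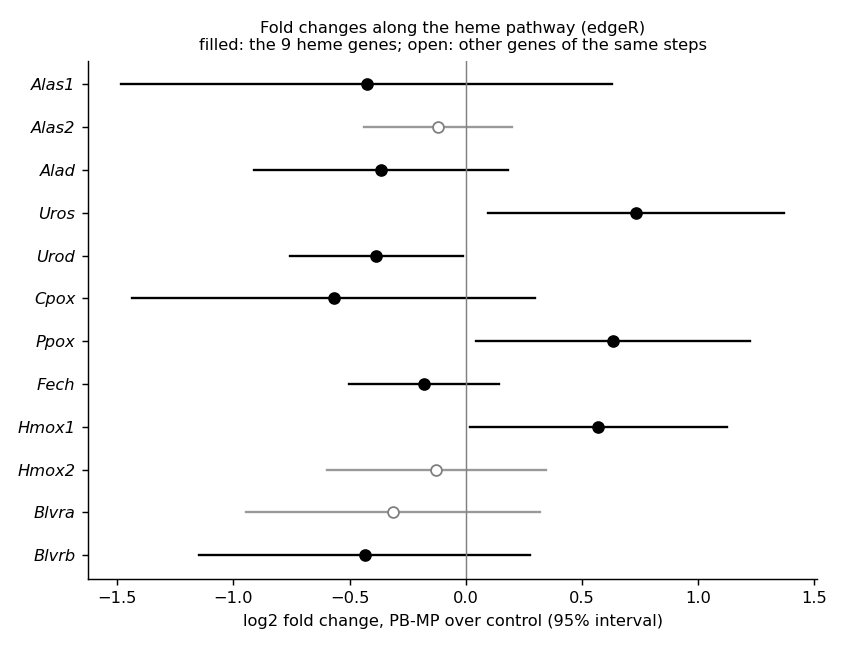
Points give the edgeR log2 fold change of PB-MP over control for the 9 genes (filled) and 3 other genes of the same steps (open), in pathway order, and lines give 95% intervals (n = 3 libraries per group). Uros, Ppox and Hmox1 lie right of 0 and Urod left of it with intervals that leave out 0 before adjustment, while Fech, Alas2 and Hmox2 lie left of 0 here but right of it with library totals as the only scaling.

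In the mitochondrial steps, Cpox, Ppox and Fech had 3 different patterns. Cpox, which oxidises coproporphyrinogen, measured 95.4, 187 and 238 CPM in controls and 79.4, 147 and 124 CPM with PB-MP. Replicate 1 was the lowest in each group, and the groups overlapped because control replicate 1 lay below all but 1 of the PB-MP libraries. The log2 fold change of -0.57 ± 0.37 had an edgeR adjusted p of 0.572. Leaving out the first control library moved it to -0.87 (adjusted p 0.503), leaving out the third control to -0.26, and leaving out the first PB-MP library to -0.35. Its ratio of highest to lowest library, 3.0, was larger than in 92.0% of 1064 genes of like level.

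Ppox, which oxidises protoporphyrinogen to protoporphyrin, had 12.8, 10.2 and 9.46 CPM in controls and 15.6, 12.9 and 21.8 CPM with PB-MP. PB-MP replicate 2 was just above control replicate 1, and PB-MP replicate 3 was well above all others. The fold was 1.55 with a 95% interval of 1.03 to 2.33, and the log2 fold change was 0.63 ± 0.25 (edgeR unadjusted p 0.0386, adjusted p 0.387). In the GENCODE M21 annotation 17.5% of the exon bases of Ppox (791 bases) also lie in exons of B4galt3 on the opposite strand. B4galt3, a galactosyltransferase gene, averaged 5.94 CPM in controls and 9.04 CPM with PB-MP, with a log2 fold change of 0.61. The library kit keeps strand, but the strand setting of the counting is not given in the sources used here, so reads of the shared bases may have been counted for either gene. Shared exon bases made up 7.53% of Alas1 (an antisense transcript) and 3.06% of Cpox (Gpr15), and were 0 between Uros and its neighbour Bccip.

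Fech, which inserts iron to complete heme, was the steadiest of the 9. It measured 151, 169 and 171 CPM in controls and 139, 150 and 145 CPM with PB-MP. The PB-MP libraries lay below the controls, but the gap from 150 to 151 CPM was small. Its ratio of highest to lowest library was 1.23, and 3.44% of 987 genes of like level had a smaller one. The log2 fold change was -0.18 ± 0.14 (edgeR adjusted p 0.636), with a fold interval of 0.707 to 1.10, and the log2 estimate was 0.042 with library totals as the only scaling.

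In breakdown, the inducible heme oxygenase and the cytosolic biliverdin reductase B gene had estimates on opposite sides of 0. Hmox1, whose enzyme opens the heme ring and which is a known NRF2 target and BACH1-repressed gene, had 12.0, 10.9 and 12.3 CPM in controls and 14.1, 15.1 and 23.1 CPM with PB-MP. The controls were close together, the PB-MP libraries were all above them, and PB-MP replicate 3 stood well above the other 2. The means were 11.7 ± 0.774 and 17.4 ± 4.94 CPM (SD, n = 3). The fold was 1.49 with an interval of 1.01 to 2.18, and the log2 fold change was 0.57 ± 0.24 (edgeR unadjusted p 0.0448, adjusted p 0.404). Hmox2, the constitutive oxygenase, overlapped fully at 44.2, 28.8 and 35.9 CPM in controls and 29.5, 37.0 and 33.2 CPM with PB-MP, with a log2 fold change of -0.13 ± 0.20.

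Blvrb, a flavin and biliverdin reductase, measured 198, 167 and 210 CPM in controls and 103, 108 and 214 CPM with PB-MP. PB-MP replicates 1 and 2 were below every control, and PB-MP replicate 3 was the highest of all 6. The log2 fold change was -0.44 ± 0.30 (edgeR adjusted p 0.601), and without PB-MP replicate 3 it was -0.86 (adjusted p 0.323). Blvra, the main adult biliverdin reductase gene, was measured at 7.99, 5.56 and 8.50 CPM in controls and 7.66, 4.88 and 5.21 CPM with PB-MP. Its log2 fold change was -0.31 ± 0.27, and its groups overlapped.

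PB-MP replicate 3 had the highest Uros, Ppox, Hmox1 and Blvrb of all libraries, and it also had the most RNA of Kupffer cells and macrophages, which break down heme from red cells. The 9 markers of these cells summed to between 115 and 151 CPM in controls and between 146 and 304 CPM with PB-MP (two-sided exact permutation p 0.2, where 0.1 is the smallest that 3 against 3 can give). PB-MP replicate 3 was the library at 304 CPM, and Marco, a macrophage scavenger receptor, stood at 30.3 CPM there against 1.55 to 4.61 CPM elsewhere. DESeq2 called 1 of the 9 markers, Marco (adjusted p 0.0354), against 2.44% of the genes it gave an adjusted p. All 9 marker estimates were above 0. At an edgeR unadjusted p below 0.05, 3 were higher (7.35% of all genes), and 3 lay above every control (11.4% of all genes). With library totals only, 6 were higher at that level. There 2825 of the 17871 genes tested were at that level in either direction, and the median log2 fold change of all genes was 0.23. Without PB-MP replicate 3 the log2 fold changes were 0.31 for Hmox1 (edgeR adjusted p 0.461), 0.48 for Uros (adjusted p 0.453) and 0.40 for Ppox (adjusted p 0.467). The part of macrophage RNA in these values was not tested, and in bulk tissue more cells of a type and more RNA per cell cannot be told apart.

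Erythroid RNA varied more than Alas2 did. Of 10 erythroid markers, 9 were in the table and summed to between 265 and 509 CPM in controls and between 430 and 633 CPM with PB-MP (exact permutation p 0.3). Globins and Alas2 made up nearly all of it: Hba-a1 ranged from 58.9 to 150 CPM, while Slc4a1 and Gata1 were at most 0.165 CPM. Of 6 markers tested, 4 had estimates above 0. At an edgeR unadjusted p below 0.05, 1 was higher (7.35% of all genes). That was Hbb-bs, a globin gene, with overlapping groups and a log2 fold change of 0.87 (edgeR adjusted p 0.400). Epb42 had 0 reads in all 6 libraries, which allows up to 0.0285 to 0.0495 CPM depending on the library and covers counting error only. Alas2 stayed between 61.4 and 75.1 CPM throughout. The summed markers gave exact permutation p values of 0.6 for hepatocytes, 1 for endothelial cells, 0.3 for stellate cells, 0.4 for cholangiocytes and 0.2 for adipocytes. Gene by gene, 3 of the 6 stellate markers were lower at an unadjusted p below 0.05 (4.74% of all genes), and these were apart between groups (8.49% of all genes); DESeq2 called Col1a1, a collagen chain gene (adjusted p 0.0452). Of the adipocyte markers Cfd, the adipsin gene, had a log2 fold change of -3.11. It passed in DESeq2, as did 2.44% of the genes given an adjusted p there, but not in edgeR. Fabp4 lay on the other side of 0, at 0.26. Adipoq and Plin1 had at most 9 reads in any library and were not tested in edgeR. The part of these cells' RNA in the heme gene values was not tested.

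Of the 9 genes, 6 had estimates below 0, and the median log2 fold change was -0.36, against 0.01 over all genes tested, of which 49.4% were below 0. Fech was above 0 with library totals as the only scaling, where the median of the 9 was -0.15 and that of all genes 0.23. The sign differed with level. The 6 genes with estimates below 0 averaged between 50 and 500 CPM over all libraries, a range in which 70.4% of 1799 genes were below 0 (median -0.15). Uros, Ppox and Hmox1 averaged between 5 and 25 CPM, where 50.6% of 5167 genes were below 0 (median -0.00). These level ranges were chosen after the values were seen.

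Per kilobase of the longest annotated transcript, the 9 control levels spanned from Blvrb to Uros. The upper 5 were Blvrb at 128 ± 14.9 CPM per kb (SD, n = 3), Alas1 at 91.4 ± 47.7, Alad at 73.7 ± 17.1, Cpox at 56.0 ± 23.4 and Urod at 50.5 ± 7.70. Each of these overlapped the next in its range over libraries. Fech at 24.9 ± 1.68 CPM per kb lay below all of them, and Hmox1 at 7.48 ± 0.493 lay below Fech. Ppox at 2.45 ± 0.396 CPM per kb and Uros at 2.03 ± 0.304 were lowest and overlapped each other. With PB-MP the order was the same except that Urod (38.7 ± 0.154 CPM per kb) and Cpox (37.7 ± 11.1) changed places, with ranges that overlapped. Hmox1 was at 11.1 ± 3.15 CPM per kb with PB-MP, still below Fech at 22.0 ± 0.779.

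**Figure D3:**
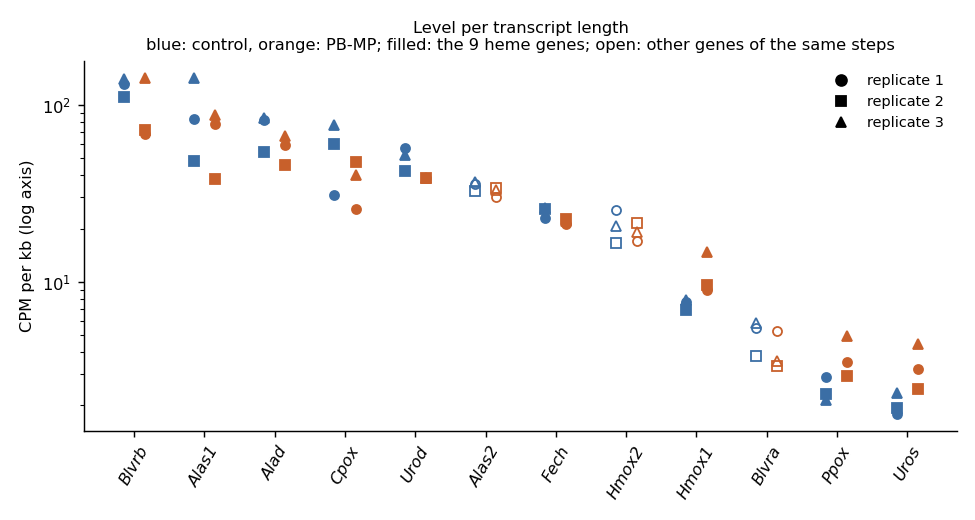
Points give each library's level per kilobase of transcript on a log axis for the 9 genes and 3 others of the same steps, control and PB-MP in separate colours. Blvrb has the highest and Uros the lowest mean in both groups, and Hmox1, Ppox and Uros sit apart from the other members at 2.03 to 11.1 CPM per kb in the group means.

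Across the 6 libraries the genes fell into correlated pairs, given as descriptions of values that share depth and library. Hmox1 correlated with Uros at r = 0.91 and with Ppox at r = 0.90, and Uros with Ppox at r = 0.83. Cpox correlated with Fech at r = 0.89, although they differ widely in spread, and Ppox with Fech at r = -0.83. Alas1 showed little relation to Hmox1 (r = 0.07) or Cpox (r = 0.10). Among 11352 named genes at a mean of at least 1 CPM, those whose pattern was most like Alas1 were Cd36, a fatty acid translocase (r = 0.98), Alg12, a mannosyltransferase (r = 0.98), and Borcs7 (r = 0.98). Those most like Hmox1 were Ngrn, Rmc1 and Kctd13 (r = 0.99 each). With 6 libraries and so many genes, high values of r are easily reached.

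Transporters and chaperones of heme and porphyrins (Gapdh, Pgrmc1 and Pgrmc2 are the chaperones) were mostly lower in estimate. Of these 15 genes, 13 had estimates below 0, 4 were lower at an unadjusted p below 0.05 (4.74% of all genes), none was higher (7.35% of all genes), and the median log2 fold change was -0.29. Abcg2, Slc48a1 and Tspo, among the 4, averaged between 50 and 500 CPM, where 70.4% of all genes were below 0. With library totals as the only scaling 10 were below 0, none was at an unadjusted p below 0.05, and the median was -0.07, still below the 0.23 of all genes. Abcg2, an exporter of porphyrins and drugs, measured 64.8, 53.4 and 74.5 CPM in controls and 36.5, 44.1 and 44.8 CPM with PB-MP, a log2 fold change of -0.62 ± 0.18 (edgeR adjusted p 0.284). Every PB-MP library lay below every control, which was so for 8.49% of all genes. The same held for Slc48a1, which carries heme out of lysosomes (log2 fold change -0.54 ± 0.16, edgeR adjusted p 0.297). Abcb10, a mitochondrial inner membrane transporter needed for heme synthesis, stood at 31.3, 29.0 and 29.0 CPM in controls and 22.7, 23.6 and 19.8 CPM with PB-MP (log2 fold change -0.43 ± 0.15, adjusted p 0.345). Tspo, an outer membrane protein that binds porphyrins, overlapped between groups (log2 fold change -0.54 ± 0.22, adjusted p 0.389). None of these passed the adjusted threshold.

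Of 12 genes for mitochondrial iron supply and iron-sulfur assembly, which provide the iron and the cluster held by FECH, 6 had estimates below 0. At an unadjusted p below 0.05, 1 was lower (4.74% of all genes) and none was higher (7.35% of all genes). With library totals only, 5 were below 0, 1 was lower and 2 were higher at that level, Slc25a28 among the 2. With that scaling 2825 of the 17871 genes tested were at that level in either direction. The lower gene was Fdxr, ferredoxin reductase, at 8.91, 10.1 and 3.24 CPM in controls and 3.33, 2.04 and 2.72 CPM with PB-MP. Control replicates 1 and 2 were high and control replicate 3 lay among the PB-MP libraries. Its log2 fold change was -1.45 ± 0.44 with an adjusted p of 0.302 in edgeR and 0.0406 in DESeq2. Slc25a28, which encodes the mitochondrial iron importer mitoferrin 2, had every PB-MP library above every control (11.4% of all genes). Its log2 fold change was 0.24 ± 0.16 (edgeR adjusted p 0.570).

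Among the regulators of Alas1 and Hmox1, 19 of 20 names were tested and 11 estimates were below 0 (49.4% of all genes). At an unadjusted p below 0.05, 1 was higher (7.35% of all genes) and 2 were lower (4.74% of all genes). With library totals only, 7 were below 0 and none was lower at that level. Nfe2l2, which encodes NRF2, the activator of Hmox1, measured 35.6, 47.8 and 39.7 CPM in controls and 60.6, 47.8 and 72.2 CPM with PB-MP. Control replicate 2 and PB-MP replicate 2 were equal to 3 digits, with the PB-MP library barely above, and the log2 fold change was 0.55 ± 0.20 (edgeR adjusted p 0.361). Rxra, the partner of the drug-sensing receptors that induce Alas1, stood at 415, 241 and 384 CPM in controls and 41.0, 195 and 179 CPM with PB-MP. PB-MP replicate 1 was far below the rest, and the log2 fold change was -1.33 ± 0.55 (adjusted p 0.404). Foxo1, the fasting factor that acts with PGC-1alpha on Alas1, had a log2 fold change of -0.64 ± 0.25 (adjusted p 0.376).

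The NRF2 targets other than Hmox1 lay mostly on the other side of 0 from it. Of 9 tested, 8 had estimates below 0, and the median was -0.27. At an unadjusted p below 0.05, 1 was lower (4.74% of all genes) and none was higher (7.35% of all genes). Most of the 9 averaged between 50 and 500 CPM, where 70.4% of 1799 genes were below 0, while Hmox1 averaged 14.6 CPM. With library totals only, 6 were below 0 and none was at an unadjusted p below 0.05. Gsr, glutathione reductase, measured 66.7, 68.8 and 58.8 CPM in controls and 36.0, 53.5 and 30.3 CPM with PB-MP. Its log2 fold change was -0.70 ± 0.23 (edgeR adjusted p 0.328). Ftl1, the ferritin light chain gene that stores iron freed from heme, averaged 4399 ± 554 and 3225 ± 261 CPM (SD, n = 3), with a log2 fold change of -0.45 ± 0.20. Both had every PB-MP library below every control, which was so for 8.49% of all genes.

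Around the pathway's ends the estimates were mixed. Of 5 genes that scavenge plasma heme and haemoglobin, 3 had estimates below 0 and none had an unadjusted p below 0.05. With library totals only, 1 was below 0 and 1, Cd163, was higher at that level. There the median of all genes was 0.23. Cd163, the macrophage haemoglobin receptor, was at 4.13, 1.22 and 3.29 CPM in controls and 4.51, 5.64 and 5.53 CPM with PB-MP (log2 fold change 0.86 ± 0.43), and Hp, haptoglobin, had a log2 fold change of -0.34 ± 0.21. Of 8 genes of bilirubin uptake, conjugation and export, 5 had estimates below 0 (3 with library totals only). At an unadjusted p below 0.05, 1 was lower (4.74% of all genes). That gene was Gstm1, a glutathione transferase that binds bilirubin and drugs, at 2668, 1780 and 2663 CPM in controls and 1095, 1050 and 1005 CPM with PB-MP. Its groups lay far apart, with a log2 fold change of -1.17 ± 0.22, an adjusted p of 0.207 in edgeR and one of 7.72e-04 in DESeq2. Abcc3, a bilirubin conjugate exporter, had a log2 fold change of -0.60 ± 0.30.

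Of 15 abundant hemoproteins and partners, the main users of hepatic heme, 10 had estimates below 0, with a median of -0.28. Among all genes tested 49.4% were below 0, and among those averaging between 50 and 500 CPM 70.4% were. Most of the 15 averaged outside that range, and no share was taken for genes above 500 CPM. At an unadjusted p below 0.05, 2 of the 15 were lower (4.74% of all genes) and none was higher (7.35% of all genes). Cyp2c29, a P450 monooxygenase, measured 1532, 1353 and 1700 CPM in controls and 1014, 1072 and 879 CPM with PB-MP. The PB-MP libraries lay below all controls, which was so for 8.49% of all genes, and the log2 fold change was -0.63 ± 0.18 (edgeR adjusted p 0.284). With library totals only, none of the 15 was at an unadjusted p below 0.05. Cyp2b10, a P450 inducible by phenobarbital, overlapped between groups and had a log2 fold change of -1.24 ± 0.48 (adjusted p 0.376).

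**Figure D4:**
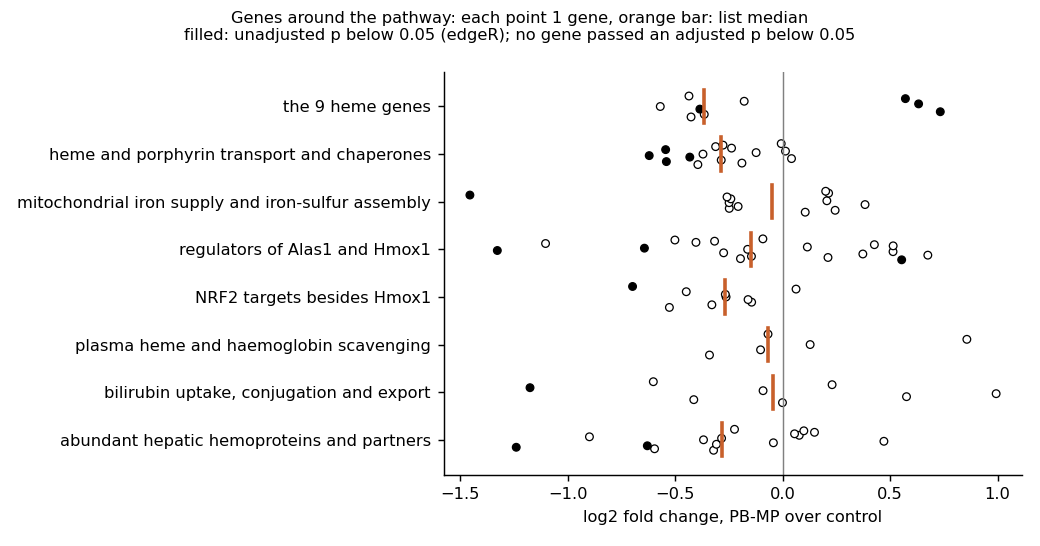
Each point is the edgeR log2 fold change (PB-MP over control) of 1 gene, in 8 lists by role, with an orange bar at the list median and filled points at an unadjusted p below 0.05. The 9 heme genes split into 6 left of 0 (Fech lies right of it with library totals as the only scaling) and 3 right of 0 with a median of -0.36, and the transport list has 4 filled points, all left of 0.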

How the data were processed

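Liver RNA from 3 control and 3 PB-MP libraries was poly(A)-selected and made into libraries with a kit that keeps strand, per the labels' protocols. For each gene and library the authors deposited a raw read count, all 6 libraries in 1 table, which the 6 single-library files matched exactly. The submitters' processing notes name bcl2fastq and GRCm39. No label names the aligner, counter, annotation or strand setting (not given in the sources used here). Of 56674 rows, 939 share 67 names, and none of these is a heme gene. Groups were taken from the sample titles.

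Genes were kept by edgeR's filterByExpr (minimum count 10, minimum total 15), which left 17871, all 9 heme genes among them. Counts were TMM-scaled and tested with edgeR 4.0.16 (glmQLFit and glmQLFTest, R 4.3.3) over all 6 libraries with Benjamini-Hochberg adjustment over all genes tested. DESeq2 1.42.0, limma 3.58.1 (voom), other scalings and filters, a replicate block and leaving out each library were alternatives. Marker sums were compared by exact permutation. The fit was tested on simulated counts.

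Named genes are the 9, the other genes of their steps, and in each list those at an unadjusted p below 0.05 that averaged 1 CPM or more, at most 4, filled to 2 by smallest p. A few genes of these lists and steps are not reported here. The genes, lists and level ranges were chosen with earlier results of these data known. Transcript lengths and exon overlaps are from GENCODE M21. No pair of libraries differed by as little as sampling noise (smallest chi-square per degree of freedom 181), so each counted once.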

Additional observations from a re-analysis of the deposited data

How the results depend on the processing

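Over 19 alternative settings none of the 9 heme genes passed the adjusted threshold, and Uros, Ppox, Hmox1, Alad, Urod, Cpox and Blvrb kept the sign of their estimates. The number of all genes past it, 0, was 512 with DESeq2, 0 to 1 when 1 library was left out, and 2 without both control replicate 2 and PB-MP replicate 3, libraries chosen after the data were seen. Before adjustment 2161 genes had p below 0.05, a number that was 1410 with a minimum of 1 CPM in 3 libraries, 4185 with limma-voom quality weights, 4316 without those 2 libraries, and 1472 to 3338 when 1 was left out. For the heme genes this count, 4, was 1 with a replicate block, 2 with the 18S share as a term, and 1 to 3 when 1 library was left out. Deviations of same-numbered libraries correlated at -0.09, 0.09 and 0.08, which cannot show whether the numbers pair them. The best-matching PB-MP library was the same-numbered one for control replicates 2 and 3, and replicate 3 for control replicate 1. The heme genes whose groups did not overlap, 5 (19.8% of all genes), were 3 with library totals only (23.9% of all genes) and 8 without the 2 libraries (59.3% of all genes). Their median log2 fold change ran from -0.53 to -0.15 when 1 library was left out. With library totals only, the log2 fold change was 0.042 for Fech, 0.10 for Alas2 and 0.081 for Hmox2. When 1 library was left out it ran from -0.76 to 0.037 for Alas1 (above 0 without control replicate 3) and from -0.29 to 0.031 for Hmox2 (above 0 without control replicate 1). The cause of these shifts was not tested. Fdxr (-1.44) and Gstm1 (-1.17) passed with DESeq2, as did the cell type markers Marco, Col1a1 and Cfd. With 3 libraries per group the 95% intervals of Alas1, Alad, Cpox, Fech and Blvrb reach both sides of no difference.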

Other observations

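A pair of Alas1 regulators, chosen after their values were seen, varied more between control libraries than between groups. Nr1i3, the drug-sensing receptor CAR that induces Alas1, gave 229, 20.6 and 7.35 CPM in the controls (replicates 1, 2 and 3) against 141, 106 and 119 CPM in the PB-MP libraries, with a log2 fold change of 0.51. The control with the least Nr1i3, replicate 3, had the most Alas1, but control replicate 2, also low in Nr1i3, had the least Alas1 of the controls (164 CPM). The clock gene Arntl measured 11.8, 13.2 and 3.39 CPM in controls and 6.61, 6.32 and 8.52 CPM with PB-MP, and its repressor Nr1d1 measured 49.3, 51.0 and 106 CPM in controls and 122, 103 and 69.8 CPM with PB-MP. Control replicate 3 had the lowest Arntl of all libraries and more Nr1d1 than the other controls. The part of either regulator in the spread of Alas1 was not tested.

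Bach1, the heme-sensing repressor of Hmox1, measured 17.6, 25.3 and 23.3 CPM in controls and 29.8, 29.8 and 17.1 CPM with PB-MP. The library with the most Hmox1, PB-MP replicate 3, had the least Bach1 and the most Nfe2l2, at 72.2 CPM. Control replicate 1 had nearly as little Bach1 with Hmox1 at 12.0 CPM, and PB-MP replicates 1 and 2 had the most Bach1 with Hmox1 above every control. The part of these regulators in Hmox1 levels was not tested.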
